A study of Homo sapiens with 42 samples.

Results

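Chromatin accessibility at baseline was compared between PC9 and H1975, a pair of established human lung adenocarcinoma cell lines that the labels class as EGFR mutant. In each line, cells were kept for 21 days in drug-free medium and then for 3 days with DMSO, the vehicle, before ATAC-seq. The extraction text in the labels describes a ChIP for the histone mark H3K27ac, whereas the titles and the design name ATAC-seq, which is how the counts are read here. These 6 libraries, 3 of each line and labelled as biological triplicates, are part of 42 libraries of the series, which otherwise holds cells given osimertinib, AZD5153 or both, and other lines. All 6 share medium, time in culture and vehicle, and neither line carries an introduced allele. The labels give no batch, so line and any batch of culture, transposition or sequencing cannot be told apart, and each line is 1 cell population.

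ATAC-seq counts the cuts that a transposase makes in open chromatin, so that promoters and enhancers in use give many reads and packed DNA gives few. Lung adenocarcinomas keep, to varying degrees, the regulators of alveolar epithelium, and cell lines differ in which enhancers they hold open. Read numbers also follow the number of DNA copies, and cancer lines gain and lose whole chromosome arms. A difference at a locus was therefore read against that of its surroundings.

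Regions were called separately in each line, all of the same width. A PC9 region and an H1975 region were taken as the same place where they were each other's best match and overlapped by at least 50% of their width. This rule joined 46044 regions, 66.2% of the 69565 PC9 regions and 59.8% of the 76952 H1975 regions, with a median overlap of 480 bp. Both tables gave the same nearest gene for 45910 of them. Every gene name below is that nearest gene, and no link between a region and the activity of the gene was measured. The 6 libraries held 2197191 to 2800713 reads over the matched regions in PC9 and 4365017 to 5033778 in H1975. Levels are counts per 1000000 of these reads (CPM), scaled with TMM factors, which ranged from 0.962 to 1.04. Differences are on the log2 scale, PC9 minus H1975, given with the standard error of the fit (SE).

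The promoters of 5 genes that recur below serve to show what was measured. The 250 bases before the RefSeq start (GRCh38.p14) are printed 5′ to 3′ on the strand of the gene, with every CG dinucleotide in capitals, since CG-dense and CG-poor promoters are the usual division of human promoters. They lie at chr3:12759260-12759509 on the minus strand (TMEM40), chr7:55018767-55019016 on the plus strand (EGFR), chr17:8630726-8630975 on the minus strand (MYH10), chr5:150113366-150113615 on the minus strand (CSF1R) and chr6:19837120-19837369 on the plus strand (ID4).
TMEM40: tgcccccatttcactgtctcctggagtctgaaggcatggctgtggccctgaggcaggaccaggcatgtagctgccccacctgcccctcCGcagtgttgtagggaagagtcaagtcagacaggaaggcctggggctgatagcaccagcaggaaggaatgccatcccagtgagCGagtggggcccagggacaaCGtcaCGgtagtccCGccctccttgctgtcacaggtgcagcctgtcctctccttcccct
EGFR: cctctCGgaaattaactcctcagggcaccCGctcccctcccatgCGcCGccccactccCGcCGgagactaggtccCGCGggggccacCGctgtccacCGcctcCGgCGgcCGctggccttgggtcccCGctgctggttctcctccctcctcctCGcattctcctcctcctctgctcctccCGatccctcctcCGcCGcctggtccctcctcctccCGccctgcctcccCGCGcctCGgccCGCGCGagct
MYH10: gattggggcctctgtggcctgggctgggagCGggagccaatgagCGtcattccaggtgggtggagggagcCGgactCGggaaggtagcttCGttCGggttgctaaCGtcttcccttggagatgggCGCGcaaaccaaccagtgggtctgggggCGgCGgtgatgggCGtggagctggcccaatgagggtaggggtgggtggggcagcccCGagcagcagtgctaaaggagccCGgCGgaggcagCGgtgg
CSF1R: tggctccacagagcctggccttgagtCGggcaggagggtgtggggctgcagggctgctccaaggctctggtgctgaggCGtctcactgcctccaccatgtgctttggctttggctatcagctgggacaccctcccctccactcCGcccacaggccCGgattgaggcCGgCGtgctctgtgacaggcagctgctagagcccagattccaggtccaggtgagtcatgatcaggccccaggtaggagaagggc
ID4: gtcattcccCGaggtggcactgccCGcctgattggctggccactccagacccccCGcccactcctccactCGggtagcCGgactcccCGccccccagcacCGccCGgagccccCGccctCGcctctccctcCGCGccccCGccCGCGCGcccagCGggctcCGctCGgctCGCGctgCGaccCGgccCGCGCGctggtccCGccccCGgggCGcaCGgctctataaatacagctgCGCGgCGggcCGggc

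The TMEM40 window held 5 CG and the CSF1R window 6, against 16 in MYH10, 25 in EGFR and 34 in ID4. The median over all 34961 windows of the same length on chromosomes 1 to 22 and X was 11. The letters TGANTCA of the AP-1 motif, searched on both strands, were found in the CSF1R window and in none of the other 4. They occur in 6.54% of all windows. Promoters that were more open in PC9 (TMEM40, EGFR) and in H1975 (MYH10, CSF1R, ID4) are found on both sides of the median CG number. CG content could not be compared over all called promoters. A sequence overlapping the region by at least 150 bp was at hand for 53.7% of 13497 promoters, 1 per gene and called or not. This is short of the 80% set as a minimum, so that check is void.

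Libraries of a line resembled each other far more than those of the other line. Pearson's r of log2 CPM across regions was at least 0.946 within PC9 and at least 0.972 within H1975, and at most 0.575 between lines, where regions are not independent replicates. The variance between libraries of a line was 0.956 to 1.19 times what counting alone gives, with 1.19 between H1975 libraries 1 and 3. The p-values therefore measure little more than counting error, and a minimum size of difference was used for calls.

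Of 45792 regions tested, 31734 (69.3%) differed between the lines at an adjusted p under 0.05 (edgeR quasi-likelihood test, Benjamini-Hochberg adjusted), 15792 of them higher in PC9 and 15942 higher in H1975. In 32399 regions (70.8%) all 3 libraries of one line lay above all 3 of the other, those of PC9 in 35% and those of H1975 in 35.7%. With a log2 difference of at least 1 as a further condition, 13369 regions (29.2%) remained, 6776 of them higher in PC9.

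Large stretches of the genome were shifted as a whole. In bins of 10 Mb with at least 50 tested regions, 257 in all, the median log2 difference ran from -1.16 to 1.33 with an SD over bins of 0.443. It was at least 0.5 in 32 bins and at most -0.5 in 30 bins. The balance of these numbers depends on filter and scaling: they were 16 and 38 with a mean of at least 50 counts per library, 27 and 88 on the full tables, and 49 and 21 with scaling by library size alone. The 62 bins at or past 0.5 in size were picked on these same libraries and regions, so agreement within them is largely given. All 62 kept their sign in each of the 9 pairs of a PC9 and an H1975 library. Promoters and other regions had the same sign in 61 of the 62, and in 193 of all 257 bins. The bins accounted for 11.5% of the variance of the region differences.

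Chromosome 14 was lowest in PC9, with a median of -0.54 over 1469 regions, followed by chromosome 7 with -0.47 over 2674. Chromosome 11 was highest at 0.44 over 2580 regions, ahead of chromosome 15 with 0.33 and chromosome 12 with 0.31. Single bins went further. The 20 to 30 Mb bin of chromosome 12 had a median of 1.33, with 92.9% of its 70 regions higher in PC9, and the 0 to 10 Mb bin of that chromosome had 1.08 over 282 regions. Part of chromosome 1 was also higher in PC9 (1.10 at 100 to 110 Mb), as was the end of chromosome 8 (1.05 at 140 to 150 Mb). The lowest medians were -1.16 at 60 to 70 Mb of chromosome 8, -1.14 at 40 to 50 Mb of chromosome X and -1.10 at 20 to 30 Mb of chromosome 19. No copy number was measured here, so the part of DNA copies in these shifts was not tested.

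**Figure D1:**
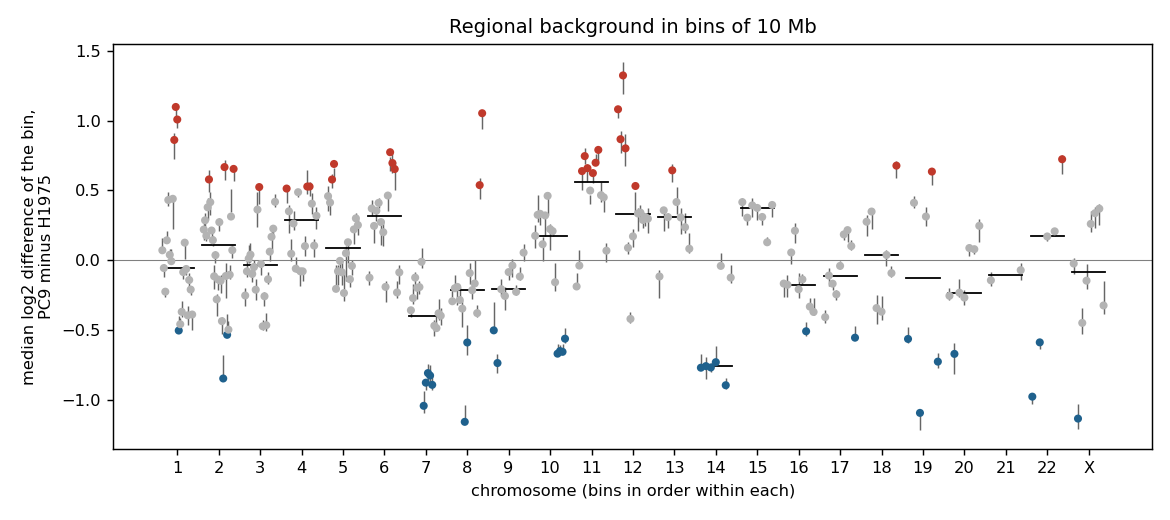
Median log2 difference (PC9 minus H1975) in each of the 257 bins of 10 Mb, in order along each chromosome. Vertical lines span the 9 pairs of single libraries on the log2(CPM + 0.5) scale, black bars give the median of a chromosome's bins, and the 32 red and 30 blue points lie at or beyond 0.5 and -0.5. Every bin of chromosomes 7 and 14 lies below 0, and most bins of chromosome 11 lie above it.

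GAPDH, a glycolytic enzyme whose gene is open in all cells, shows what this background does to a single value. Its promoter on chromosome 12 had 82.4, 74.3 and 74.0 CPM in PC9 and 30.5, 23.7 and 29.1 CPM in H1975, a log2 difference of 1.47. Its bin had a median of 1.08, which leaves a local difference of 0.39 (SE 0.10). Among 17 ubiquitously used genes with a matched promoter, differences ran from -1.16 to 1.51 before and from -0.67 to 0.98 after the background was taken off. Before, 4 of the 17 were called with a minimum of 1, 3 toward PC9 and 1 toward H1975. After, none met that rule in edgeR or in DESeq2, although 10 of the 17 had an unadjusted p under 0.05.

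From here on, the local difference is the log2 difference fitted with the bin median as an offset, and a call needs an adjusted p under 0.05 and a local difference of at least 1 in size. By this rule 11239 regions (24.5%) were called, 5468 (11.9%) higher in PC9 and 5771 (12.6%) higher in H1975. This split was less even with a mean of at least 50 counts per library (2139 and 3503) and with bin medians over promoters only (4817 and 6532). With no minimum size 28115 (61.4%) were called, 30% toward PC9 and 31.4% toward H1975. Of the 13369 regions past 1 without the offset, 31.0% were no longer called, and 2010 regions were called only with it.

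Calls were less frequent at promoters, and with this background their direction was not the same there as elsewhere. Of 25208 promoter regions tested 19.4% were called, 3005 higher in PC9 and 1873 higher in H1975. Of 9919 intron regions 33.3% were called, and of 8251 distal intergenic regions 29.6%. In both classes more were higher in H1975: 2047 against 1260 in introns and 1505 against 941 in distal regions. The gap between promoters and other regions was present in each of 4 equal groups by mean level, from 32.4% against 37.0% in the lowest to 7.44% against 20.7% in the highest. These shares are a description, with no test. The direction by class depends on the background, which is the median over all classes of a bin. The median over bins was 0.12 with promoters only, against 0.01 with all regions. With promoter medians as background, calls over all classes were 4817 toward PC9 and 6532 toward H1975. The split by class was not made there. The called share also rose with the offset between the windows of the tables, from 22.1% where they started within 10 bp of each other to 33.1% where they started more than 100 bp apart, and the part of this offset in single calls was not tested.

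**Figure D2:**
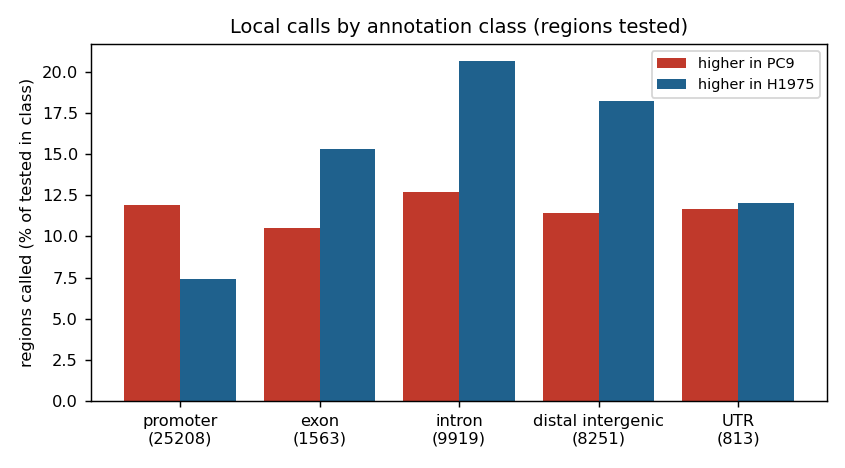
Share of tested regions of each annotation class that were called higher in PC9 (red) or in H1975 (blue), in percent, with the number tested under each class. Promoters have more calls toward PC9 (11.9%) than toward H1975 (7.43%), and introns (12.7% and 20.6%) and distal intergenic regions (11.4% and 18.2%) have more toward H1975. The background is the bin median over all classes, and these directions depend on that choice.

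The regions named next are the 6 with the largest local difference in each direction among promoters and among other regions, taken from those with above-median level and no overlap between lines. They were picked for size, so their size is a description. The mean CPM differed 9.81-fold to 37.6-fold in these 24 regions, with SEs of the local log2 difference of 0.10 to 0.17 and adjusted p of at most 1.8e-65.

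More open in PC9 was the promoter of TMEM40, which encodes a transmembrane protein (chr3:12759128-12759629). It had 62.6, 66.6 and 60.9 CPM in PC9 and 5.00, 3.71 and 3.45 CPM in H1975, a local difference of 4.05 (SE 0.15). GPR160, an orphan G protein-coupled receptor, had 102, 107 and 106 CPM at its promoter in PC9 against 4.05, 6.39 and 7.97 CPM in H1975. ITGB4 encodes the integrin subunit that anchors epithelial cells to the basement membrane at hemidesmosomes. A region 915 bp before its start had 69.2, 67.3 and 56.5 CPM in PC9 and 2.86, 4.12 and 5.17 CPM in H1975. No library of either line came near those of the other at these promoters. CRACDL, TTLL6 (a tubulin-modifying enzyme) and MECR (mitochondrial fatty acid synthesis) completed the set, with local differences of 3.66, 3.64 and 3.49.

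Toward H1975, MYH10 was prominent, the gene of nonmuscle myosin heavy chain IIB, a motor of the actin cortex. Its promoter had 97.9, 102 and 99.7 CPM in H1975 and 4.85, 2.82 and 3.79 CPM in PC9, a local difference of -4.32 (SE 0.16). Regions within 1 Mb that belong to other genes had a median difference of -1.02 before the background was removed, lower than the bin at -0.41. RHOD encodes a small GTPase, and a region 1910 bp before its start had 62.2, 62.0 and 60.3 CPM in H1975 against 4.85, 2.47 and 5.51 CPM in PC9. ABHD12, a lysophospholipase, had 76.7, 71.5 and 74.5 CPM in H1975 at a promoter region and 3.97, 4.58 and 3.79 CPM in PC9. The other promoters were LINC02912 (-4.73), LOC100289333 (-4.08) and ANKRD33 (-4.00).

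Outside promoters, a region 17288 bp before GABRP, the gene of the pi subunit of the GABA-A receptor, had the largest local difference of the 24, 4.99 (SE 0.16). It had 91.3, 95.1 and 90.5 CPM in PC9 and 3.10, 1.03 and 3.23 CPM in H1975, with 740 and 33 reads behind them. Regions of other genes within 1 Mb of it had a median of 1.04 before the background was removed, above the bin at 0.25. An intron of MYH14, which encodes nonmuscle myosin heavy chain IIC, had 71.9, 75.0 and 66.8 CPM in PC9 and 4.29, 4.74 and 8.83 CPM in H1975. Members of the same myosin family were thus more open in opposite lines, MYH10 in H1975 and MYH14 in PC9. CPT1A, the enzyme that lets long-chain fatty acids into mitochondria, held an intron region with 71.4, 76.8 and 69.9 CPM in PC9 and 3.33, 2.27 and 2.80 CPM in H1975. KCP, COA8 and PRKCE had local differences of 4.49, 4.36 and 4.23.

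In the other direction, an intron region of CDCP1, a membrane glycoprotein phosphorylated by Src kinases, had 110, 116 and 103 CPM in H1975 and 3.53, 5.28 and 6.20 CPM in PC9. SKAP2, an adaptor of the Src family kinases, had 81.2, 69.0 and 71.3 CPM in H1975 at an intron region and 3.53, 3.52 and 4.13 CPM in PC9. COX11 (-4.46), H2AW (-4.38), LINC00524 (-4.05) and PVT1 (-4.04) made up the rest.

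**Figure D3:**
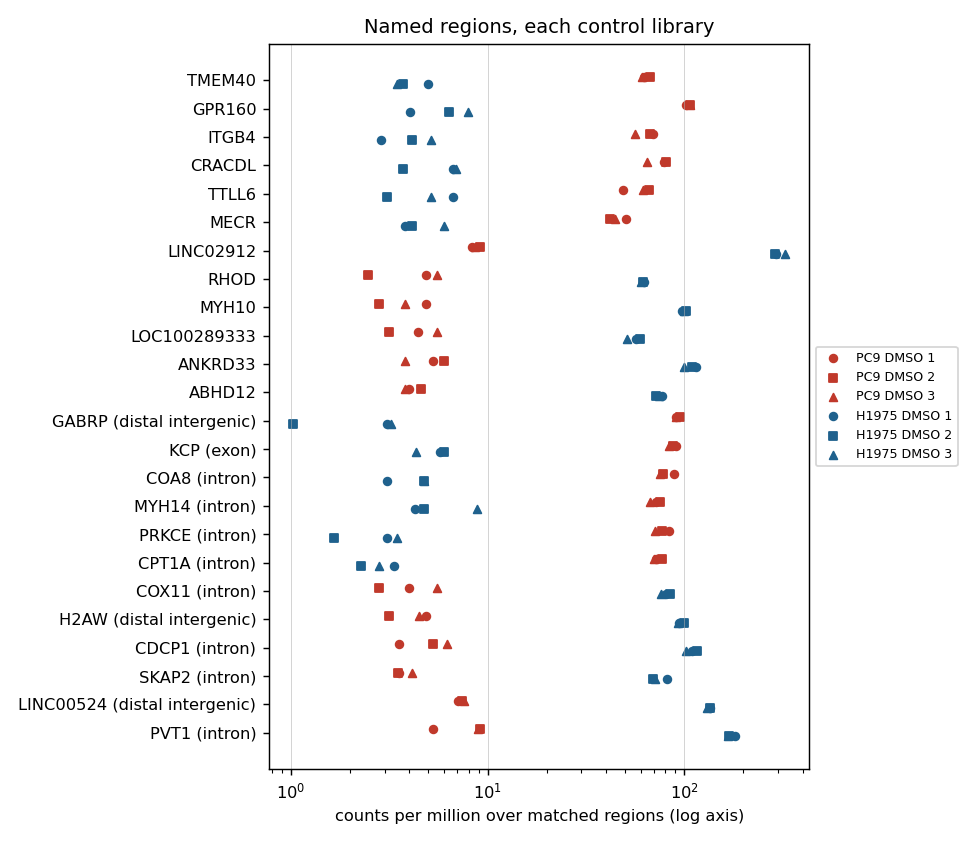
CPM (log axis) of the 24 named regions in each of the 6 control libraries, PC9 in red and H1975 in blue, with 1 marker shape per replicate. The lines do not overlap at any region, as the choice of regions requires, and the mean level differs 9.81-fold to 37.6-fold.

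By locus, reads were summed over all matched regions with the same nearest gene, for genes with at least 3 such regions. Of 6334 loci tested, 499 (7.88%) were called, 202 (3.19%) higher in PC9 and 297 (4.69%) higher in H1975. In 40 loci every region was called the same way, 16 toward PC9 and 24 toward H1975, and 1070 loci held calls in both directions, so that whole-locus shifts were the less usual form. The split of locus calls depends on the background: with bin medians taken over promoters only, 159 loci were higher in PC9 and 404 in H1975.

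JDP2, a bZIP protein that pairs with JUN, was among the 8 strongest loci toward PC9. Its 6 regions summed to 289, 284 and 298 CPM in PC9 and 61.7, 63.4 and 65.9 CPM in H1975, a local difference of 2.23 (SE 0.06), with 4 regions called. In 1 intron region, 21087 bp past the start, PC9 had 138, 125 and 134 CPM and H1975 had 0.953, 0.206 and 0.862 CPM, on 1055 and 9 reads. INHBB, the beta B subunit of activins, had 307, 261 and 282 CPM against 62.2, 62.0 and 53.6 CPM over 7 regions. LBH, a transcriptional cofactor linked to Wnt signalling, had 248, 228 and 226 CPM against 52.2, 44.7 and 44.4 CPM over 6 regions.

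MYH14 had 8 of its 9 regions called toward PC9, with 276, 287 and 276 CPM in PC9 and 88.8, 84.7 and 92.6 CPM in H1975. Its local difference was 2.39, of which -0.73 is the bin median, whereas neighbours within 1 Mb had a median of 0.54. With a background in bins of 1 Mb, chosen after seeing the data, the difference was 1.06. CCNE1 (cyclin E1, which drives entry into S phase) rests wholly on its background. Its 9 regions summed to 205, 203 and 207 CPM in PC9 and 148, 127 and 129 CPM in H1975, a difference of 0.61 that became 1.71 against a bin median of -1.10. The median of its neighbours was 0.22, and with bins of 5 Mb the local difference fell to 0.48 and with bins of 1 Mb to 0.28, and was not called. ANTXRL (1.89), VPS28 (1.67) and KRT78 (1.63) were the remaining loci. For VPS28, neighbours within 1 Mb had a median of 1.32 before the background was removed. KRT78 stood at 0.89 and was not called with chromosome medians as background.

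Toward H1975 the leading stretch was the MYC neighbourhood on chromosome 8. MYC encodes a transcription factor that promotes growth, and PVT1 is a long noncoding RNA transcribed beside it. Over the 24 regions of PVT1, H1975 had 3856, 3751 and 3855 CPM and PC9 had 659, 611 and 627 CPM, with 14 regions called toward H1975 and 1 toward PC9. The local difference was -2.22 (SE 0.03). MIR1208, the next gene along, had 953, 894 and 910 CPM in H1975 and 166, 158 and 146 CPM in PC9. A promoter region of LINC02912, inside this stretch, had 293, 288 and 325 CPM in H1975 against 8.38, 9.16 and 8.61 CPM in PC9.

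At MYC itself, 2 of 3 matched regions, both annotated as promoter, were called toward H1975, with local differences of -3.39 and -2.49. The mean level of the first was 130 ± 7.9 CPM (SD, n = 3) in H1975 and 9.34 ± 1.8 CPM (SD, n = 3) in PC9. The third region, further upstream, had 54.2, 45.4 and 47.5 CPM in PC9 and 50.01, 54.4 and 49.3 CPM in H1975, and was not called. In 1 of 22 alternative settings it was called toward PC9, at 1.28. Over CASC11, MYC, PVT1, LINC02912 and MIR1208 together, 26 of 46 regions were called toward H1975 and 4 toward PC9. The reach was limited, since the 120 to 130 Mb bin as a whole had a median of -0.38. Regions of other genes within 1 Mb of PVT1 had a median of -0.84 and those around MIR1208 -1.26. With bins of 1 Mb, PVT1 was at -1.24 and MIR1208 at -0.26, which was not called. Copy number and regulation within this stretch cannot be told apart from accessibility alone.

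The other loci toward H1975 were LINC00523 (-2.75), C11orf86 (-2.39), C11orf80 (-2.30), ATP6AP1L (-2.18), UBAC1 (-2.14) and LINC00524 (-2.07). For LINC00523, neighbours within 1 Mb had a median of -1.33 before the background was removed, against a bin median of -0.13. C11orf86, C11orf80 and RHOD lie within a short stretch of chromosome 11 where neighbours had medians of -0.27 to -0.60 against a bin median of 0.50. LINC00524 held 2 regions called toward each line.

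Lists of genes by role were then read at 1 promoter per gene, that nearest to the annotated start. Of 13497 such promoters, 1997 (14.8%) were called, 1215 (9%) toward PC9 and 782 (5.79%) toward H1975, with a median local difference of 0.06. Over 22 lists, 273 genes had a matched promoter and 55 were called, 35 toward PC9 and 20 toward H1975. In 8 of the 55 the difference without background was under 1 in size, so that those calls rest on the offset. None of the lists was tested as a set.

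Genes of the alveolar epithelium were split. Of 17 with a matched promoter, 5 were called toward PC9 and 3 toward H1975, with a median of 0.00. This split depends on the background. Before it was removed, NAPSA and FOXA1, both called toward PC9, had differences of 0.75 and 0.35 in bins at -0.73 and -0.76. NKX2-1, not called, was then at -1.11. Over all 42 regions of the list the numbers were 6 and 9. NKX2-1, the lung lineage factor, had 21.2, 15.9 and 14.5 CPM in PC9 and 35.5, 33.4 and 40.3 CPM in H1975 at its promoter, and a local difference of -0.35 (SE 0.14) against a bin at -0.76. SFTA3 lies 42 kb from it and had 86.4, 87.7 and 91.98 CPM in H1975 and 5.29, 5.64 and 3.10 CPM in PC9, the largest difference of the list at -3.50. FOXA2, a forkhead factor of lung and gut endoderm, had 24.05, 23.7 and 24.8 CPM in H1975 against 2.205, 5.28 and 3.44 CPM in PC9. AQP5, a water channel of alveolar type I cells, was the reverse, with 15.9, 13.7 and 13.1 CPM in PC9 and 3.33, 2.47 and 2.80 CPM in H1975. SFTPD, which encodes surfactant protein D, had 52.9, 52.5 and 49.2 CPM in PC9 and 14.3, 17.3 and 14.4 CPM in H1975. No library overlapped at FOXA2, AQP5 or SFTPD. Of the surfactant genes SFTPB and SFTPC, neither had a matched promoter.

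Of the epithelial genes, CDH1, the E-cadherin gene, had 32.2, 35.9 and 35.8 CPM in PC9 and 54.3, 56.4 and 54.7 CPM in H1975, a difference of -0.66 that fell to -0.15 after the background, and 2 of its 11 regions were called each way. Of 27 epithelial promoters, 6 were called toward PC9 and 2 toward H1975, and of all 165 regions of the list 30 and 26. The largest difference was at a region annotated as promoter of KRT8, a keratin of simple epithelia, which starts at chr12:52949703. It had 9.26, 7.40 and 5.85 CPM in PC9 and 95.3, 95.0 and 96.7 CPM in H1975 (local difference -3.27, SE 0.14). Only 1032 bp away, the promoter of its partner KRT18, chosen after its values were seen, had 33.5, 36.3 and 35.5 CPM in PC9 and 19.3, 15.0 and 15.5 CPM in H1975 (1.51). Adjacent regions of 1 gene pair were thus called in opposite directions. The 11 matched regions nearest to KRT8 span chr12:52879397-52950204, and the one above lies at the outer end. It was the only 1 of them called toward H1975, and 4 were called toward PC9. Its value therefore does not stand for KRT8 as a whole. ELF3 (2.33), RAB25 (1.81) and SPINT1 (1.56) were called toward PC9, ELF3 at no more than 4.85 CPM in any library.

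A basal cell gene stood out. TRIM29, active in squamous and basal epithelium, had 32.2, 33.8 and 33.0 CPM in PC9 and 1.67, 0.412 and 1.51 CPM in H1975, a local difference of 4.72 (SE 0.24). It was the only 1 of 8 basal promoters called, and the other 7 lay between -1 and 1. Of all 43 regions of the list, 11 were called toward PC9 and 6 toward H1975.

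Of 19 mesenchymal promoters, 3 were called toward PC9 and 1 toward H1975, with a median of -0.05. Over all 83 regions of the list the balance was the reverse, with 7 toward PC9 and 17 toward H1975. VIM (vimentin) had 16.8, 20.4 and 19.97 CPM in PC9 and 16.7, 15.4 and 16.8 CPM in H1975, a local difference of -0.09 (SE 0.15) whose sign changed with the background. ZEB1, a repressor of epithelial genes, was at 0.25 (SE 0.15). Both genes also had 1 region outside promoters that was called toward H1975, at -2.46 for VIM and -1.01 for ZEB1. ZEB2 was called at 1.17. PDGFRB, a growth factor receptor of stromal cells, had 11.5, 11.3 and 14.1 CPM in PC9 and 4.29, 3.91 and 3.45 CPM in H1975. LOX (1.08) was not called without PC9 library 2 (0.88) or with bins of 1 Mb (0.53). FAP, a membrane protease, was higher in H1975, with 31.2, 34.0 and 35.8 CPM against 6.17, 5.64 and 4.48 CPM.

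EGFR, the mutated receptor of both lines, was more open at its promoter in PC9. It had 55.99, 71.2 and 65.7 CPM there and 21.4, 22.9 and 27.4 CPM in H1975, a local difference of 1.45 (SE 0.10, adjusted p = 7.7e-35). With bins of 5 Mb it was 0.99 and with promoter medians as background 0.86, neither past the minimum of 1. Of 16 regions nearest to EGFR, 4 were called toward PC9 and 1 toward H1975, with local differences from -1.22 to 3.31. The highest was an intron region 7914 bp past the start, with 22.9 ± 3.3 CPM (SD, n = 3) in PC9 and 2.23 ± 0.74 CPM (SD, n = 3) in H1975. The region called toward H1975 lies 33187 bp before the start and had 33.5 ± 7.3 CPM (SD, n = 3) in PC9 and 77.4 ± 0.60 CPM (SD, n = 3) in H1975. A region 23098 bp past an annotated start had 175 CPM in PC9 and 176 CPM in H1975 on average. The locus was thus not shifted as a whole.

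Among the other receptors of the family, ERBB2 and ERBB3 had local differences of -0.22 (SE 0.12) and -0.24 (SE 0.11) and were not called. Another promoter region of ERBB3, 461 bp past the start, was called toward PC9 at 1.2896 (SE 0.27), with 7.21 ± 2.1 CPM (SD, n = 3) in PC9 and 3.94 ± 0.14 CPM (SD, n = 3) in H1975. LRIG3, of a family of membrane proteins that act on ERBB receptors, was called toward H1975 with 37.4, 37.3 and 31.0 CPM against 7.495, 9.86 and 11.02 CPM. In all, 1 of 13 promoters of EGFR family receptors and ligands was called each way, and of all 70 regions 10 were called toward PC9 and 11 toward H1975.

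Receptors that can replace EGFR signalling were mixed, with 4 of 17 promoters called toward PC9 and 2 toward H1975, and 4 and 0 before the background was removed. Over all 97 regions of this list 12 were called toward PC9 and 16 toward H1975. FGFR4 had 29.1, 33.8 and 31.7 CPM in PC9 and 10.7, 10.3 and 11.2 CPM in H1975 (1.31). IGF1R was called toward H1975 at -1.02, although the difference before the background was -0.63, and it was not called without PC9 library 3 (-0.90) or H1975 library 2 (-0.95). AXL was at -0.32 (SE 0.21), and its sign changed with the background. MET had no matched promoter. Its 4 intron regions had differences from -2.67 to -1.16 before and -1.78 to -0.27 after a bin median of -0.89 was removed, and 1 was called, with 89.0 ± 2.3 CPM (SD, n = 3) in H1975 and 13.9 ± 1.8 CPM (SD, n = 3) in PC9. Chromosome 7 thus held EGFR with a bin median of -0.01 and MET with one of -0.89.

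Of 21 targets of the ERK pathway that EGFR drives, 1 was called each way, SPRED1 toward PC9 (1.25) and CCND1 toward H1975 (-1.11). This is 9.52% of the list, against 14.8% of all promoters. Of all 139 regions, 25 and 17 were called, against 11.9% and 12.6% of all regions. CCND1, cyclin D1, had 21.2, 25.01 and 25.5 CPM in PC9 and 35.96, 34.8 and 39.9 CPM in H1975, a difference of -0.61 before the background. It was at -0.80 with bins of 5 Mb and not called. SPRED1 was at 0.70 and not called with bins of 1 Mb. CDKN2A, which encodes inhibitors of the cell cycle, had 11.02, 15.9 and 14.8 CPM in PC9 and 8.81, 8.86 and 9.26 CPM in H1975 and was not called (0.81, SE 0.19). Of 13 promoters of cyclins and their inhibitors, CCNE1 (2.00) and CCND1 were the ones called, and CCNE1 was at 0.90 before the background.

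AP-1 factors, which assemble from FOS and JUN proteins downstream of growth signals, had 4 of 15 promoters called toward PC9 and none toward H1975. BATF had 70.1, 64.1 and 61.6 CPM in PC9 and 13.3, 9.68 and 10.3 CPM in H1975 (2.59, SE 0.12). FOSB had 32.2, 33.1 and 31.7 CPM in PC9 and 6.43, 9.27 and 6.68 CPM in H1975. FOS (1.26) and JDP2 (1.47) followed. Over all 70 regions nearest to the genes of this list, 22 were called toward PC9 and 3 toward H1975, where 11.9% and 12.6% of all regions were. FOS, JDP2 and BATF are neighbours on chromosome 14, with 243 kb between the promoters of FOS and BATF, and gave 11 of the 22 calls, so they are not separate observations. Neighbours within 1 Mb of JDP2 had a median of 0.37 against a bin at -0.04. With bins of 1 Mb the FOS promoter was at 0.85 and not called.

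In the YAP and TEAD list, 2 of 20 promoters were called each way, and of all 123 regions 25 were called toward PC9 and 18 toward H1975. WWTR1, which encodes the coactivator TAZ, had 79.1, 74.6 and 70.9 CPM in H1975 and 21.2, 16.9 and 12.05 CPM in PC9 (-1.72, SE 0.12), whereas its relative YAP1 was at 0.00 (SE 0.14), with 1 of its 6 regions called toward PC9. Across all 8 regions of WWTR1 3 were called toward PC9 and 2 toward H1975. Those toward PC9 are other promoter regions of the gene, with local differences of 1.47, 1.31 and 1.85 at mean levels of 6.52, 9.58 and 9.96 CPM in PC9. The promoter regions of WWTR1 thus did not share 1 direction. TEAD3, a DNA-binding partner of both, had 28.2, 25.4 and 20.7 CPM in PC9 and 4.29, 5.15 and 5.82 CPM in H1975. LHFPL6 (3.26) was called toward PC9 and STK3, a kinase that restrains YAP, toward H1975 (-1.40).

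In the BCL2 family, which sets the threshold of apoptosis, 3 of 14 promoters were called toward PC9 and none toward H1975, with a median of 0.51. This is 21.4% of the list, against 14.8% of all promoters, 9% of them toward PC9. Of all 58 regions, 10 and 4 were called, against 11.9% and 12.6% of all regions. HRK, which promotes apoptosis, had 45.4, 44.4 and 41.0 CPM in PC9 and 5.00, 3.91 and 6.25 CPM in H1975. BCL2, which blocks it, had 30.9, 34.9 and 26.2 CPM in PC9 and 9.76, 11.3 and 8.83 CPM in H1975. HRK and BCL2, with opposite roles, were thus both more open at their promoters in PC9. BID (1.14) had a difference of 0.17 before its background, a bin median of -0.98, and its call rests on that.

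Detoxifying enzymes under NRF2 had 3 of 21 promoters called toward PC9 and none toward H1975. This is 14.3% of the list, near the 14.8% called among all promoters. ALDH1A3, a retinaldehyde dehydrogenase, had 45.0, 60.9 and 55.4 CPM in PC9 and 2.62, 1.65 and 3.02 CPM in H1975, a local difference of 4.15 (SE 0.18). TXN, thioredoxin, had 33.9, 37.3 and 31.0 CPM against 4.29, 3.30 and 3.66 CPM, and UGT1A6, a glucuronosyltransferase, had 35.3, 33.5 and 36.1 CPM against 10.2, 10.9 and 13.1 CPM. The other 18 were not called, of all 94 regions 10 were called toward PC9 and 7 toward H1975, and the list's median was 0.07 against 0.06 for all promoters.

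Interferon and antigen presentation genes had 4 of 16 promoters called toward H1975 and none toward PC9. IFI44 had 11.4, 14.01 and 10.99 CPM in H1975 and 1.76, 0.704 and 1.72 CPM in PC9, and OAS2, a sensor of double-stranded RNA, had 10.95, 13.4 and 12.3 CPM against 3.53, 4.23 and 3.10 CPM. CIITA, the activator of MHC class II genes, was at -1.13 and STING1, an adaptor of DNA sensing, at -1.09. CIITA was not called without PC9 library 2 (-0.99) or with bins of 1 Mb (-0.66), and STING1 not without PC9 library 1 (-0.97) or with a mean of at least 50 counts per library (-0.92). Over all 38 regions of the list 10 were called toward H1975 and 1 toward PC9, against 12.6% and 11.9% of all regions. IRF1 (0.12), named after its value was seen, was not called.

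Markers of other tissues were sparse among matched promoters. Of 20 endothelial and immune genes 7 had one, and 2 were called, both toward H1975. CSF1R, the receptor of macrophage colony-stimulating factor, had 73.3, 75.8 and 67.2 CPM in H1975 and 16.3, 16.6 and 16.9 CPM in PC9 (-2.34, SE 0.11). CD14, a coreceptor for lipopolysaccharide, had 23.3, 27.2 and 26.7 CPM in H1975 and 3.97, 5.28 and 4.13 CPM in PC9. The other 5 promoters of the list were not called, and of all 42 regions 6 were called toward PC9 and 10 toward H1975. PTPRC, CD3E and KDR had no matched promoter, although CD3E and KDR had other matched regions. A missing match does not show that a promoter is closed. The part of other cells in these values was not tested. Of 30 gut and liver genes 7 had one, and TFF1, a secreted mucosal peptide, was called toward H1975 (-3.0), while HNF4A, a factor of gut and liver, was not called (0.86, SE 0.27), but was without H1975 library 3 (1.30).

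Of 15 promoters of developmental factors of the SOX, GATA, FOX and related families in this list, ID4 was the one called. FOXA1 and FOXA2 were counted in the alveolar list, where both were called, FOXA1 toward PC9 at 1.10 on a difference of 0.35 before its background. ID4, an inhibitor of helix-loop-helix factors, had 26.9, 25.5 and 24.3 CPM in H1975 and 2.205, 4.23 and 2.75 CPM in PC9 (-3.39, SE 0.22). In the HOX clusters, HOXB9 had 58.2, 53.2 and 56.8 CPM in PC9 and 8.10, 10.3 and 9.48 CPM in H1975, and HOXC9 had 35.3, 37.7 and 31.3 CPM against 9.76, 9.06 and 10.3 CPM. They were the ones called of 3 HOXB and 5 HOXC promoters. None of the 11 HOXA promoters and 1 of 9 HOXD promoters was matched. Of 3 neuroendocrine promoters none was called, with 1 at an unadjusted p under 0.05.

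**Figure D4:**
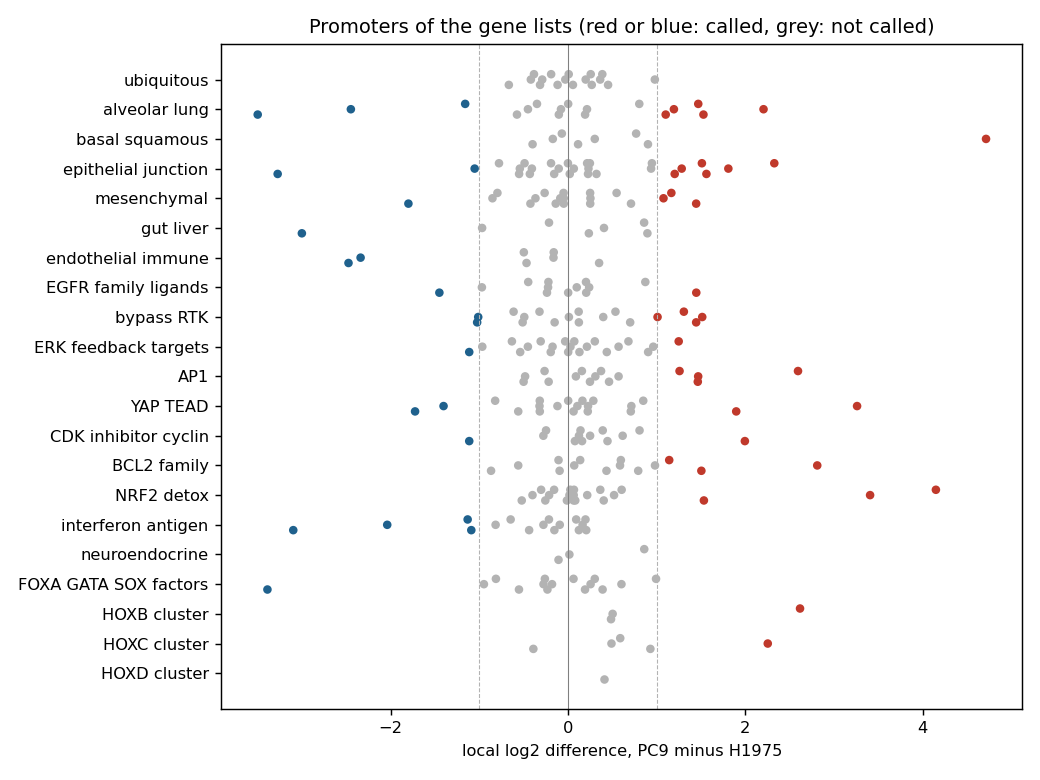
Local log2 difference (PC9 minus H1975) of each matched promoter of the gene lists, red where called toward PC9, blue where called toward H1975 and grey where not called, with dashed lines at -1 and 1. All ubiquitous promoters are grey. Called promoters are red in the AP1 (4 of 15), BCL2 family (3 of 14) and NRF2 detox (3 of 21) lists. They are blue in the interferon list (4 of 16). Of all promoters, 9% were called toward PC9 and 5.79% toward H1975, and no list was tested as a set.

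The same line difference was then taken in libraries that the comparison had not used, those of cells given 500 nM osimertinib for 24 days, with their own bin medians. Here 21.6% of 45715 regions tested were called. Of the 5468 regions called toward PC9 in the control libraries, 5445 had a value, 88.5% kept their sign and 44.7% were called the same way, while 64 were called the opposite way. Of the 5771 toward H1975, 5641 had a value, 88.2% kept their sign and 54.6% were called the same way, with 132 opposite. The median difference went from 1.53 to 0.90 and from -1.51 to -1.09. Regions picked past a minimum in one set tend to lie closer to 0 in another, so the size of this shift cannot be assigned to the drug. All 62 shifted bins kept their sign.

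All 24 named regions kept their sign and 22 were called again, the exceptions being ANKRD33 (-0.65) and LINC00524 (-0.68). Of the 55 called list promoters 51 kept their sign and 29 were called again. BATF was further apart in the persister libraries, at 3.54, and TRIM29 (1.46) and ALDH1A3 (2.25) less so. FOXA2 went from -2.45 to 0.28, FAP from -1.80 to 0.65, AQP5 from 2.21 to 0.01, IGF1R from -1.02 to 0.61 and PDGFRB from 1.45 to -0.67. The difference between control and persister libraries was not tested at these promoters.

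**Figure D5:**
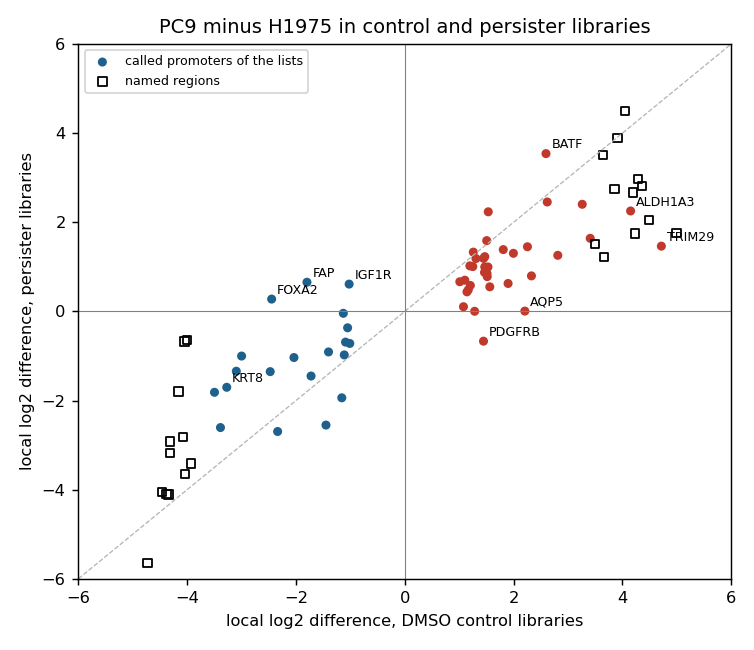
Local log2 difference (PC9 minus H1975) in the control libraries (horizontal) and in the persister libraries (vertical) for the 55 called list promoters (points, red toward PC9 and blue toward H1975) and the 24 named regions (open squares), with a dashed line of equality. All 24 squares and 51 of the 55 points keep their sign, and FOXA2, FAP, IGF1R and PDGFRB lie on the other side of 0.

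Regions without a partner are not part of these values, and places closed in one line can be among them. There were 23521 of them in PC9, 44.9% promoters, and 30908 in H1975, 34.4% promoters, against 54.9% promoters among matched regions. For 62.9% of those of PC9 and 60.0% of those of H1975, the unfiltered table of the other line did hold a region with the same overlap. A peak in all 3 control libraries of the own line and in none of the other line's was found at 5161 PC9 regions and 11774 H1975 regions. The H1975 libraries were deeper and gave 175567 to 199470 peaks, against 127720 to 164987 in PC9, so these numbers cannot be compared between lines.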

How the data were processed

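The authors deposited, for each line, raw read counts in regions of equal width and a filtered table with the nearest gene of each region. Per the labels the build was hg38, and the processing notes name BWA 0.7.17, SAMtools 1.9, MACS2 2.2.6, deepTools 3.4, featureCounts 2.0.0 and ChIPseeker 1.29.1, without roles. Reads were single-end, and no source used here states whether they were shifted for the transposase. The deposited peak lists carry −log10 q-values, of which only the peak positions were used here.

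Counts of the 6 control libraries at matched regions were tested in edgeR 4.0.16 (R 4.3.3; TMM, filterByExpr, quasi-likelihood F test, Benjamini-Hochberg adjustment over all regions tested). The local fit adds the median of the 10 Mb bin as an offset to the PC9 libraries, or of the chromosome where a bin held under 50 regions. Annotated regions lie within about 100 kb of a gene start (at most 99976 bp). DESeq2 1.42.0 and other settings served as alternatives, and the code was tested on simulated counts. The SE is the log2 difference divided by the square root of F. Named items follow a rule: the 6 largest calls per direction among promoters and among other regions, the 8 largest loci, up to 4 called promoters per list, and a set of genes whatever their values. Members and lists were chosen with earlier results of these data known. Replicate numbers do not pair the libraries (deviations of same-numbered libraries correlated at 0.0039 to 0.034), so no block was used. Counting intervals cover counting error only.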

Additional observations from a re-analysis of the deposited data

How the results depend on the processing

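Region calls without background numbered 31734 in the main setting, and local and locus calls 11239 and 499. In that order, they were 19894, 5642 and 247 with a mean of at least 50 counts per library. On the full tables region and local calls were 74439 and 44431, and the locus test was not run there because those tables carry no gene name. With a minimum of 1, region calls were 13369, and with no minimum, local and locus calls were 28115 and 4600. Without background, 833 loci were called. The count filter moved the share of region calls toward PC9 to 40.0% (7956 of 19894). Scaling by library size alone moved the median of all regions by 0.10, with 17708 calls toward PC9 and 14175 toward H1975. The SD over bins, 0.443, became 0.489 with the count filter, 0.544 on the full tables, 0.447 in bins of 5 Mb, 0.487 over promoters only and 0.246 as chromosome medians. A replicate block gave 31891, 11239 and 501 calls, and changed no other call that the text names. Leaving out 1 library at a time gave 29566 to 30941 region, 11194 to 11519 local and 491 to 520 locus calls, and an SD over bins of 0.442 to 0.446. With the dispersion of the HCC2935 control libraries and each line summed to 1 sample, 22854, 11269 and 501 were called. In bins of 1 Mb, chosen after seeing the data, local calls were 10538, of which 9438 were shared, and loci 361, of which 300 were shared.

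All 24 named regions stayed called in every alternative in which they were tested, as did 35 of 45 named promoters and 13 of 16 loci. Promoters that were not called changed sign as follows: VIM to 0.0024 (count filter), 0.0019 (full tables), 0.33 (bins of 5 Mb and chromosome medians) and 0.24 (no background), AXL to 0.027 (5 Mb), 0.18 (chromosome medians) and 0.31 (none), MYC to -0.076 (none), NKX2-1 to 0.11 (1 Mb), and YAP1 to -0.22 (promoter medians) and between -0.095 and 0.030 without 1 library, below 0 without PC9 library 2 or H1975 library 1.

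With replicates at counting noise, p-values say little about other cultures, and low levels limit single values such as ELF3 and JDP2 in H1975. Cell line, depth and any batch move together.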
